A study of Rattus norvegicus with 71 samples.

Results

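The collapsin response mediator protein (CRMP) family was followed through the brain transcriptome of newborn rats whose dams carried autoantibodies to fetal brain proteins. Its members were taken by gene symbol, Crmp1 and Dpysl2 to Dpysl5, which are 5 of the 17494 genes in the table, and all 5 passed every filter on low counts. RNA came from a 150 um coronal slice of the wild-type Sprague-Dawley brain on postnatal day (PND) 2, which held the hippocampus with cortical and subcortical structures, and 1 library was made from each of 71 animals of 27 litters. Control dams received adjuvant and saline (Saline control, 24 animals of 7 litters). The other dams were immunized, in adjuvant, with peptides of the proteins listed in a pattern's name, and their offspring are called MARA-AB exposed (47 animals of 20 litters). CRMP1+CRMP2 had 8 animals of 4 litters and CRMP1+GDA had 6 of 3. STIP1+NSE, the pattern with no CRMP antigen, had 8 animals of 4 litters. LDHA/B+CRMP1+STIP1 had 16 animals of 4 litters in batch 1 and 9 of 5 in batch 2. Each batch also held 12 controls, and batch 1 held no other pattern. Batch here means the series to which a sample's title belongs. The dam, not the pup, was treated, so that littermates share an exposure, and a slice is a mixture of cells in which fewer cells of a type cannot be told apart from less RNA per cell.

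CRMPs are phosphoproteins of the neuronal cytosol that are most abundant while axons and dendrites grow. Semaphorin 3A, acting through neuropilin and plexin receptors, leads to their phosphorylation by Cdk5, Gsk3 and other kinases, and this changes their binding to tubulin and actin. Crmp1 encodes CRMP1 and Dpysl2 encodes CRMP2, the proteins used as antigens here. Dpysl3 encodes CRMP4, Dpysl4 encodes CRMP3 and Dpysl5 encodes CRMP5. What was measured is transcript of the offspring, not the maternal antibody or the protein it binds.

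Promoter windows of the family differed in base composition. The 250 bases before the annotated start are shown for Crmp1 and Dpysl4, a pair whose litter means were correlated over all litters (below), and for Dpysl5, which holds a different motif. Whether promoters had a part in that correlation was not tested. They are RefSeq sequences of build GRCr8, read 5′ to 3′ on the strand of the gene, and capitals mark a GC box (GGGCGG) or a CCAAT box (CCAAT) on either strand.
Crmp1 promoter: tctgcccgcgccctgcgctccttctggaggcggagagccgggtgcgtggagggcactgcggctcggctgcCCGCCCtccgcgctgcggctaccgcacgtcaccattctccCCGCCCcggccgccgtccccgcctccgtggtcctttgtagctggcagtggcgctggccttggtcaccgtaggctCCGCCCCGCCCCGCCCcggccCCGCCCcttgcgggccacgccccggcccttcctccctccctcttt
Dpysl4 promoter: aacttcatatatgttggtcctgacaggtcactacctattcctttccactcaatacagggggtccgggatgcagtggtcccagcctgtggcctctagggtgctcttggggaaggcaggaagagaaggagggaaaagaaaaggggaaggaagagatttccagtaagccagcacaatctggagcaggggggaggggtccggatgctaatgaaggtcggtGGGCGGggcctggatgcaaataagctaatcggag
Dpysl5 promoter: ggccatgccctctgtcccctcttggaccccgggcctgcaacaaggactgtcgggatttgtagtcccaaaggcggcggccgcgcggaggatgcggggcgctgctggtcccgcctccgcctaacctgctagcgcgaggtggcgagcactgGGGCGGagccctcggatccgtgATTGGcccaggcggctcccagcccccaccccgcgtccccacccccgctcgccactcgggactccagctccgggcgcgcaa
The Crmp1 stretch (chr14:77780917-77781166, minus strand) was 76.4% G or C, which is the 97.4th percentile of 33469 rat promoter windows of that length, and held 6 GC boxes, some of them overlapping. The Dpysl4 stretch (chr1:203312463-203312712, plus strand) was 54.4% G or C and held 1 GC box. The Dpysl5 stretch (chr6:31379349-31379598, minus strand) was 72.8% G or C and held 1 GC box and 1 CCAAT box. A GC box was found in 30.5% and a CCAAT box in 34% of all windows. TATA boxes (TATAAA, 12.9% of windows), 2 E-boxes (CAGCTG, 12%, and CAGATG, 14%) and the cyclic AMP response element (TGACGTCA, 1.59%) were searched on both strands and were in none of these 3 windows. The 2 windows annotated for Dpysl3 were 67.2% and 61.2% G or C and held 3 GC boxes and 1, and the second also held a CAGCTG E-box. Dpysl2 is not shown.

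All 5 members were strongly expressed, and their order by level per exon length was nearly the same in every animal. Levels between genes are given as RPKM (reads per kilobase of exon, scaled to library size), computed from the counts and the exon length in the table. Dpysl3, whose protein bundles actin filaments, was highest at 911 ± 116 RPKM (SD, n = 71). Crmp1, which carries semaphorin signals to the cytoskeleton, stood at 760 ± 79.9 RPKM. Dpysl2, whose protein binds tubulin dimers and promotes axon growth, stood at 642 ± 75.4 RPKM. Dpysl5, whose protein counteracts outgrowth promoted by CRMP2, stood at 412 ± 49.5 RPKM. Dpysl4, a regulator of dendrite form in hippocampal neurons, was lowest at 65.6 ± 6.34 RPKM.

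Neighbours in this order overlapped over all animals, except that the highest Dpysl4 level (80.6 RPKM) lay below the lowest Dpysl5 level (322 RPKM). Within an animal the order was firmer. Dpysl3 exceeded Crmp1 in 68 of 71 animals and Crmp1 exceeded Dpysl2 in 70. Dpysl2 exceeded Dpysl5 and Dpysl5 exceeded Dpysl4 in 71 of 71, the latter by 6.29-fold on the means. The gene model used for Dpysl3 (rn7 chr18:35377873-35437563, minus strand) has 14 exon blocks that sum to 1792 bases, none longer than 185, against 4370 bases for Dpysl2 (chr15:41005551-41072857, minus) and 4845 for Dpysl5 (chr6:25575104-25659422, minus). The level of Dpysl3 per length, and its place as highest, depend on that shorter model. In CPM (counts scaled to library size alone) Dpysl3 averaged 1633 over the 71 animals, below Dpysl2 (2807), Crmp1 (2521) and Dpysl5 (1998). Crmp1 (chr14:73509933-73556177, minus) has 3319 bases in 15 blocks and Dpysl4 (chr1:193883106-193898916, plus) 2628 bases in 14. The lowest count of any member in any library was 3637, which limits counting error, although most low counts in the table were even, so that a count may not stand for an independent fragment.

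**Figure D1:**
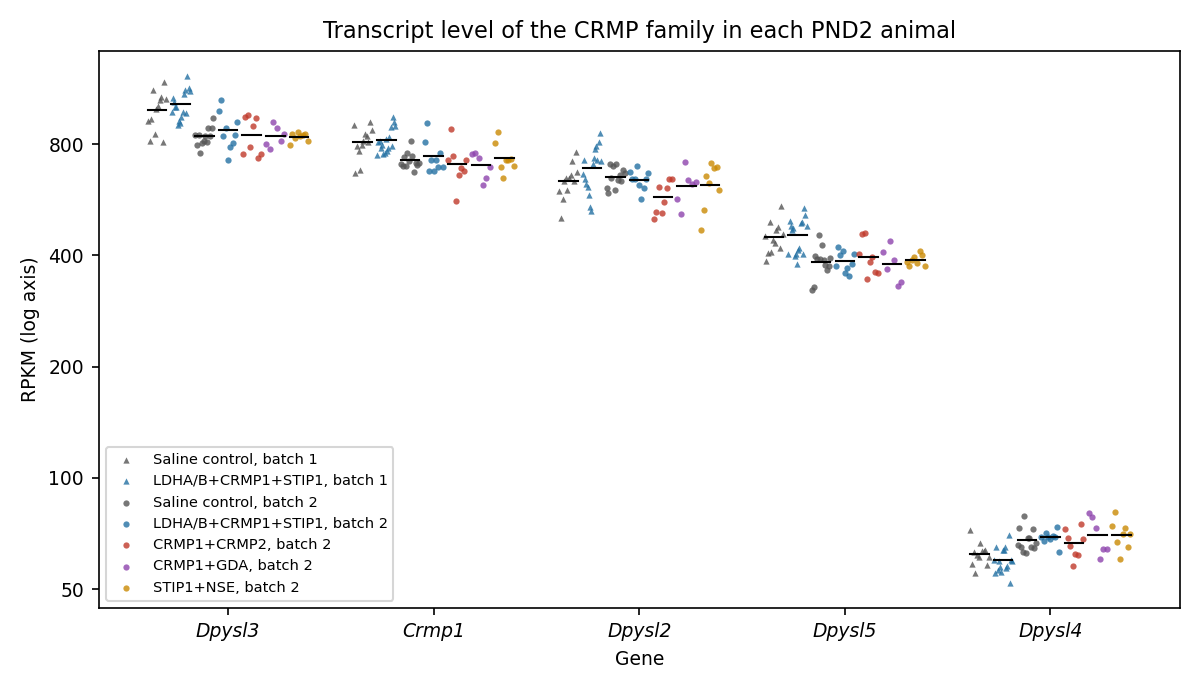
RPKM (log axis) of each family member in each of 71 animals, by group and batch, where short lines are group means. Dpysl4, at a mean of 65.6 RPKM, lies below the other members in every animal, and the exposed groups overlap the controls for every gene.

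The first question was whether exposure to any pattern changed the family. Over the 47 exposed animals and 24 controls no member passed the false discovery rate (FDR) of 0.1 used by the study in edgeR's quasi-likelihood test, where 0.0321% of the 12477 genes tested passed. No member had an unadjusted p under 0.05, and DESeq2 and limma with litter as a random effect also called 0 of 5. Estimates lay between −0.0030 (Dpysl4) and 0.026 (Dpysl3) on the log2 scale. For Crmp1 the 95% interval of the change ran from −2.84% to 4.06%, and for Dpysl2 from −5.23% to 5.68%. These and the later intervals take littermates as independent, and are too narrow where litters differ. In batch 2 alone the Dpysl2 estimate turned from 0.0011 to −0.092 on the log2 scale, which was not called (adjusted p = 0.783, edgeR). Mean Crmp1 was 2510 CPM (counts scaled to library size) in exposed animals and 2544 ± 245 in controls (SD, n = 24).

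Among the single patterns, a member of the family passed the threshold in CRMP1+CRMP2, and it was Dpysl2, the gene of an immunizing antigen. The lowest, median and highest Dpysl2 levels were 2189, 2550 and 2816 CPM in the 8 CRMP1+CRMP2 animals, 2574, 2860 and 3094 CPM in the 12 controls of the same batch, and 2201, 2804 and 3332 CPM in the 12 controls of batch 1. All 8 exposed animals lay below the median of the controls of their batch and 4 of 8 below the lowest of them, and the groups overlapped. On average Dpysl2 was 2520 ± 253 CPM (SD, n = 8) against 2822 ± 240 (n = 24), a log2 fold change of −0.15 (SE 0.05; −10.1%, 95% interval −16.8% to −2.90%; adjusted p = 0.0871, edgeR). In this comparison 11.4% of the 12691 genes tested passed the threshold, 4.83% as higher and 6.56% as lower, so that 1 of 5 members is near the share of all genes. The other 4 members had estimates between −0.04 (Crmp1, 95% interval −7.99% to 2.81%) and 0.014 (Dpysl5), with adjusted p from 0.540 to 0.901.

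**Figure D2:**
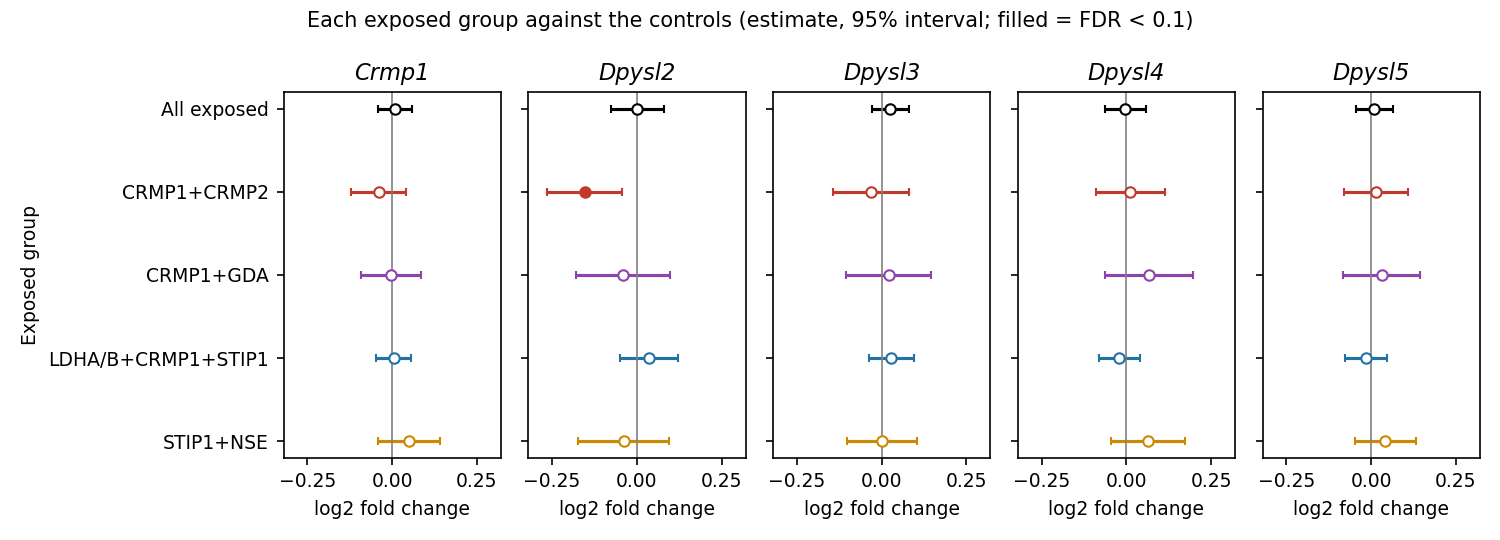
Log2 fold change of each member (x axis) in all exposed animals and in each pattern against the controls, with 95% intervals from edgeR, where filled points pass FDR < 0.1. Dpysl2 in CRMP1+CRMP2, at −0.15, is the filled point, and the other intervals cross 0.

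The lower Dpysl2 level was uneven over the litters of CRMP1+CRMP2 and over settings. The 4 litter means were 2240, 2474, 2550 and 2816 CPM, from 2 animals each, and the last lay near the control median. Against the controls of batch 2 alone the estimate was −0.18 (SE 0.06; p = 0.00399, adjusted p = 0.121, edgeR), where 1.01% of genes passed. Leaving out the litter at 2240 CPM moved it to −0.09 (adjusted p = 0.318), and leaving out the litter at 2816 CPM to −0.20 (adjusted p = 0.0245). With counts summed per litter it was −0.16 (adjusted p = 0.401), and with litter as a random effect −0.14 (adjusted p = 0.291).

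RNA of neighbouring tissue was present in some libraries of several groups, this pattern among them. Markers of the pineal gland (Crx, Tph1, Aanat, Asmt), which lies outside the hippocampus, summed to between 2.67 and 226 CPM in CRMP1+CRMP2 (median 5.11, with 2 of 8 libraries over 10 CPM) and to between 2.48 and 6.20 in the batch 2 controls, and 4 of 4 were called higher. The sums reached 79.6 CPM in STIP1+NSE, where 2 of 4 were called higher, and 36.3 CPM in CRMP1+GDA. Among the controls alone 1 of the 4 pineal genes passed the filter on low counts. The others were tested only because exposed libraries raised them, so the direction of their calls was set in advance. All 4 choroid plexus markers (Ttr, Folr1, Kl, Otx2) were also called higher in CRMP1+CRMP2, with sums of 184 to 3183 CPM against 135 to 2756 in the batch 2 controls and 2.05 to 109 in the batch 1 controls. In 4 of the 8 libraries pineal markers passed 10 CPM or Hox genes, which mark hindbrain and spinal cord, passed 5 CPM. Without the 14 such libraries of the study, which left 4 animals of this pattern, the Dpysl2 estimate was −0.10 (adjusted p = 0.620) and 1 gene of the whole table passed. Dpysl2 in those 4 libraries was 2276 to 2667 CPM, and 2189 to 2816 CPM in the other 4. Whether such RNA had a part in the Dpysl2 level was not tested.

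**Figure D3:**
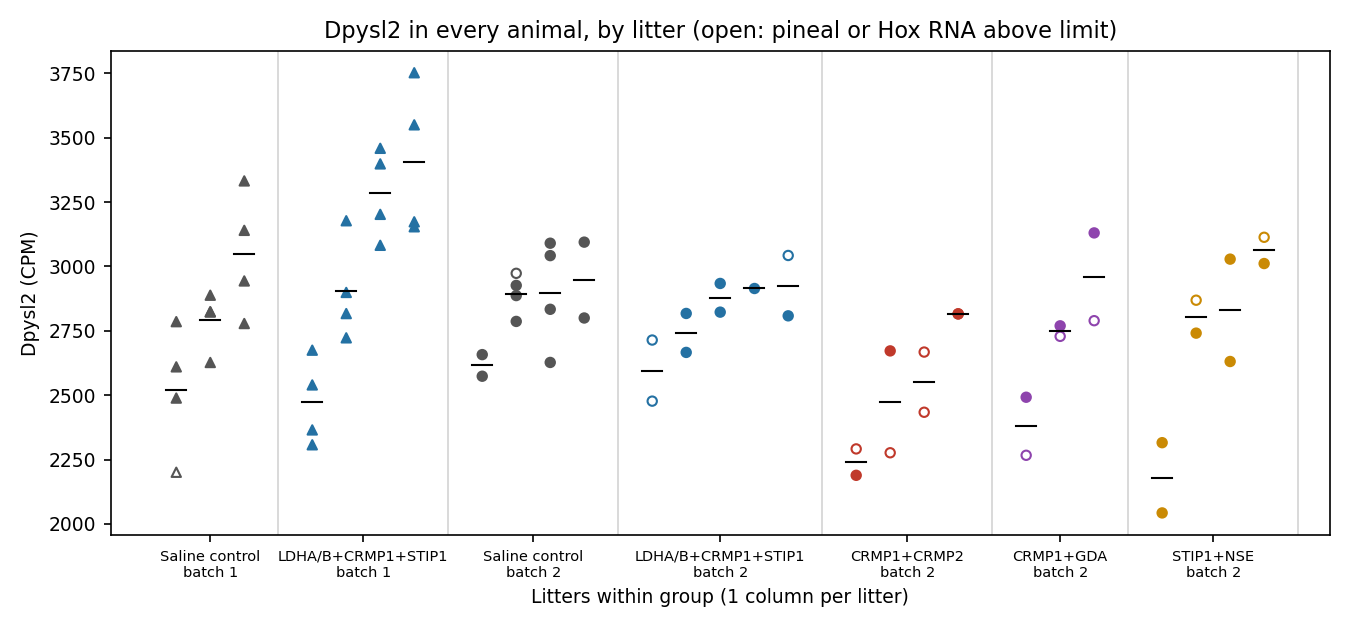
Dpysl2 (CPM) in every animal, 1 column per litter, with litter means as lines, where open symbols are libraries with pineal markers over 10 CPM or Hox genes over 5 CPM. CRMP1+CRMP2 litter means run from 2240 to 2816 CPM, and the lowest litter of the study, at 2179 CPM, is in STIP1+NSE.

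No member passed the threshold in the other 3 patterns by edgeR, DESeq2 or limma with litter as a random effect, and none had an unadjusted p under 0.05. In LDHA/B+CRMP1+STIP1, where 0.0157% of genes passed, the estimates were between −0.02 (Dpysl4) and 0.04 (Dpysl2), and the interval of Crmp1 ran from −3.25% to 3.94%. In CRMP1+GDA, where 0% of 12641 genes passed and 462 had an unadjusted p under 0.05, Dpysl4 had the estimate farthest from 0, at 0.07 (95% interval −4.33% to 14.5%). In STIP1+NSE, where 0.0474% passed, Dpysl4 stood at 0.06 (−3.04% to 12.8%) and Crmp1 at 0.05 (−2.93% to 10.3%). Against the controls of batch 2 alone, no member passed in CRMP1+GDA (0.00798% of genes passed) or STIP1+NSE (0%). The 4 comparisons share the control animals.

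Dpysl2 also spread widely within these patterns. It ran from 2043 to 3113 CPM in STIP1+NSE (median 2805), from 2266 to 3130 in CRMP1+GDA (median 2749) and from 2307 to 3752 in the batch 1 animals of LDHA/B+CRMP1+STIP1 (median 3118). In the last group 4 of 16 animals lay above every control of batch 1. Within batch 1 the LDHA/B+CRMP1+STIP1 estimate for Dpysl2 was 0.12 (SE 0.07; adjusted p = 0.971, edgeR; 0.0161% of genes passed) and within batch 2 it was −0.03 (SE 0.04; adjusted p = 0.952; 0% passed). The difference between both effects was −0.15 (95% interval −0.33 to 0.03; p = 0.104, adjusted p = 0.9999, edgeR), in a test where 0.11% of genes passed. No member passed that test of the difference.

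Patterns with and without a CRMP antigen were compared within batch 2, without the controls. The 23 animals of the 3 patterns with CRMP1 were set against the 8 of STIP1+NSE. Of all genes 0% passed (edgeR; 329 of 12698 had an unadjusted p under 0.05, and DESeq2 and limma with litter as a random effect called 0). Crmp1 was 2387 CPM against 2440 ± 224 (SD, n = 8), an estimate of −0.04 with a 95% interval from −10.4% to 6.31%. Dpysl2 was 2675 CPM against 2719 ± 376, an estimate of −0.02 with an interval from −10.3% to 7.99%. Dpysl2 encodes CRMP2, which was an antigen in CRMP1+CRMP2 alone, with 8 of the 23 animals. The contrast thus sets patterns with CRMP1 against a pattern without it. The sides also differ in NSE, GDA, LDHA/B and CRMP2, so a part of CRMP1 cannot be told apart from theirs. The interval of this contrast cannot be set against the −10.1% estimated for Dpysl2 in CRMP1+CRMP2, where the controls were the reference.

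In animals with no exposure 4 of the 5 members differed between batches. In batch 2 controls Dpysl3 was lower (1505 ± 86.4 against 1769 ± 216 CPM, SD, n = 12 each; log2 −0.23, adjusted p = 0.00182, edgeR). Dpysl5 was lower by the same measure (1862 ± 178 against 2175 ± 211 CPM; −0.23, adjusted p = 0.00260), and so was Crmp1 (2401 ± 123 against 2686 ± 257 CPM; −0.16, adjusted p = 0.00727). Dpysl4 was higher (178 ± 12.8 against 164 ± 11.4 CPM; 0.12, adjusted p = 0.0336). Dpysl2 was 2858 ± 177 against 2787 ± 294 CPM (0.03, adjusted p = 0.671).

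These differences stood beside one of the whole transcriptome, since 41.5% of 12565 genes passed between the same controls, 21.3% as higher in batch 2 and 20.2% as lower. The groups overlapped for each member, and 11 of 12 batch 1 controls lay above the batch 2 median for Dpysl5, 10 of 12 for Dpysl3 and Crmp1, and 2 of 12 for Dpysl4. Marker sums differed too: 4 thalamus markers (Tcf7l2, Lef1, Prkcd, Gbx2) summed to 168 to 646 CPM in batch 2 and 23.6 to 59.2 in batch 1, and 3 of 4 were called higher. Litters, dissection and sequencing cannot be told apart here. With counts summed per litter (7 litters) Dpysl3 alone passed (adjusted p = 0.0536), with Crmp1 at 0.217, Dpysl5 at 0.154 and Dpysl4 at 0.244.

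**Figure D4:**
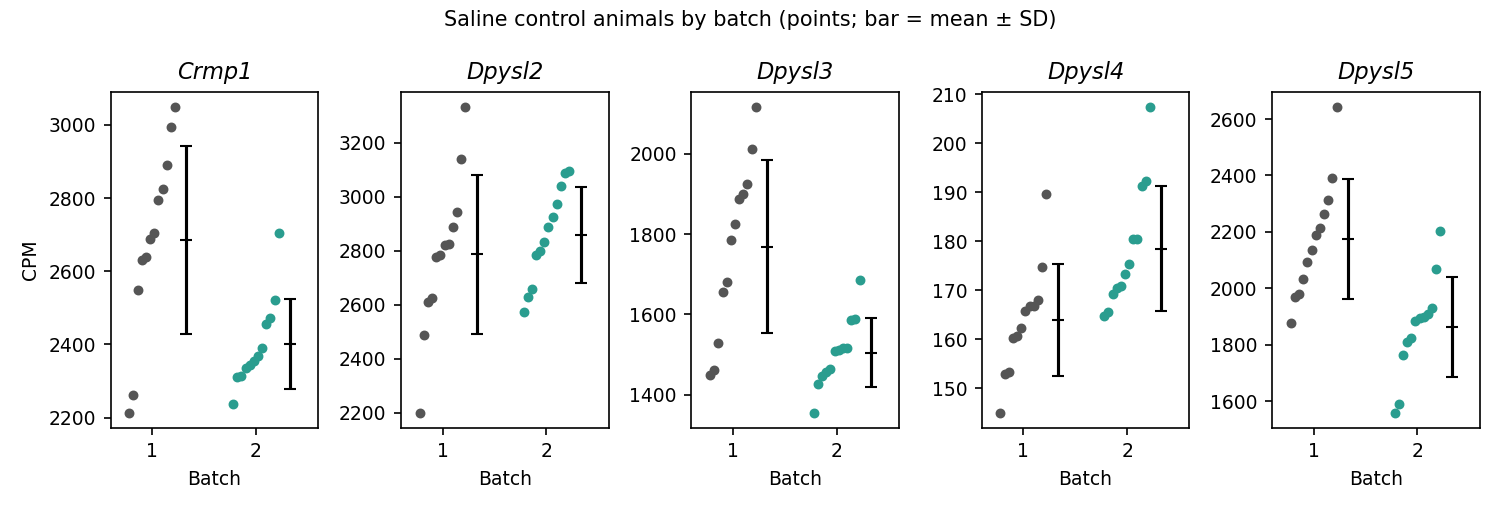
CPM of each member in the 12 control animals of each batch, with points in order of level and the mean ± SD beside them. The y axes do not start at 0, and batch 2 means are lower for Crmp1, Dpysl3 and Dpysl5, higher for Dpysl4 (178 against 164 CPM), and within the spread for Dpysl2.

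Levels in the sexes were compared across all groups. No member passed the threshold between 35 males and 36 females (edgeR, with batch and pattern in the model; 0.0641% of genes passed, 0.024% as higher in males and 0.0401% as lower; DESeq2 and limma with litter as a random effect called 0 of 5). Crmp1 was 2462 CPM in males and 2579 ± 267 in females (SD, n = 36), an estimate of −0.07 with an unadjusted p of 0.0238 and an adjusted p of 0.987. It was the member with an unadjusted p under 0.05 in that fit. With litter as a block, which compares littermates, Dpysl3 stood at −0.09 (unadjusted p = 0.00430, adjusted p = 0.458, edgeR) and Crmp1 at −0.06 (adjusted p = 0.563), and no member passed.

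Littermates resembled each other most in Dpysl2. After removal of batch and pattern, the share of variance that lay between the 27 litters was 0.691 for Dpysl2, with an SD of 0.14 between litters and 0.10 within them on the log2 scale. It was 0.361 for Crmp1, 0.263 for Dpysl3, 0.230 for Dpysl5 and 0.142 for Dpysl4. In the other 4 members the SD among pups of a dam exceeded that between dams. These shares are descriptions, since litter and pattern are nested.

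Correlations over litters are given for the pairs of members, over all litters and within each batch. Differences in r between pairs or batches were not tested. Mean log2 CPM per litter, centred within batch, was correlated for all 10 pairs with two-sided permutation within batch and adjustment over the pairs. Crmp1 and Dpysl4 moved together (r = 0.57, permutation p = 0.00415, adjusted p = 0.0415; rho = 0.565, permutation p = 0.00333, adjusted p = 0.0190; 27 litters), with r = 0.57 without the 2 litters farthest from the median. Within batch 2 (20 litters) r was 0.63 and within batch 1 (7 litters) −0.06, and without the libraries with pineal or Hox RNA the pair was at r = 0.42 (permutation, adjusted p = 0.180). Dpysl3 and Dpysl5 had r = 0.47 (permutation p = 0.0186, adjusted p = 0.0930; rho = 0.557, adjusted p = 0.0190), with r = 0.46 without the 2 farthest litters, 0.91 within batch 1 and 0.38 within batch 2. Of 4 other settings, 2 no longer called this pair by r (permutation, adjusted p up to 0.34).

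Of the other pairs, 2 passed by rho and not by r. Dpysl2 and Dpysl3 had r = 0.41 (permutation, adjusted p = 0.103) and rho = 0.519 (adjusted p = 0.0190), and r was 0.45 without the 2 farthest litters, 0.95 within batch 1 and 0.24 within batch 2. Dpysl3 and Dpysl4 ran in opposite directions, with r = −0.41 (permutation, adjusted p = 0.103), rho = −0.522 (adjusted p = 0.0190), r = −0.48 without the 2 farthest litters, −0.16 within batch 1 and −0.45 within batch 2. The genes of both CRMP antigens, Crmp1 and Dpysl2, had r = −0.05 (permutation, adjusted p = 0.792; rho = 0.142, adjusted p = 0.538), which was 0.80 within batch 1 and −0.29 within batch 2. The remaining 5 pairs had adjusted p of 0.216 or more for r and 0.0522 or more for rho. Within batch 1 (7 litters) the 6 pairs among Crmp1, Dpysl2, Dpysl3 and Dpysl5 all had r from 0.80 to 0.95, with Crmp1 and Dpysl3 at 0.84, Crmp1 and Dpysl5 at 0.82 and Dpysl2 and Dpysl5 at 0.86. Within batch 2 (20 litters) those 3 pairs had r = 0.14, 0.25 and 0.06.

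**Figure D5:**
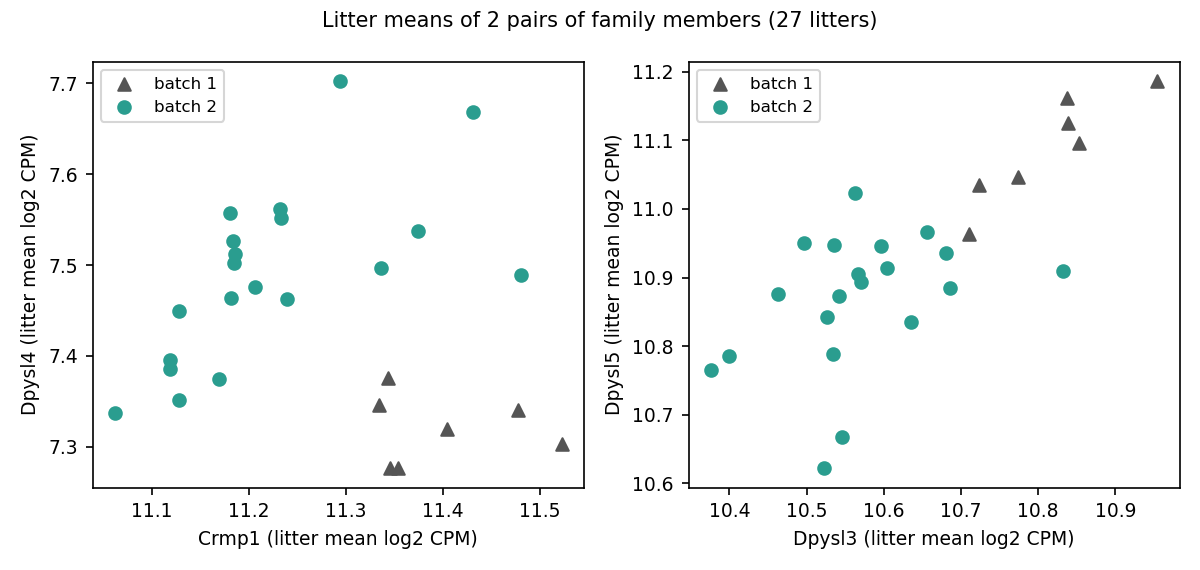
Litter means (log2 CPM) of Crmp1 against Dpysl4 and of Dpysl3 against Dpysl5 in 27 litters, before centring, where triangles are batch 1 and circles batch 2. The batches lie apart for Crmp1 with Dpysl4 and adjoin for Dpysl3 with Dpysl5, and within batch 2 Crmp1 and Dpysl4 rise together (r = 0.63).

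The genes whose levels followed each member most closely over animals differed between members. Likeness is Pearson's r of log2 CPM over 71 animals after removal of batch and pattern means, among 12477 genes, and is given without a test, since animals share litters. For Crmp1 they were Dync1i1 (0.91), a dynein intermediate chain, Nell2 (0.90), a secreted neuronal glycoprotein, and Bend6 (0.88). For Dpysl5 they were Hivep2 (0.92), a zinc finger transcription factor, Trak1 (0.90), a kinesin adaptor for mitochondria, and Farp1 (0.86), a synaptic guanine nucleotide exchange factor. For Dpysl3 they included Trim67 (0.84), a brain ubiquitin ligase, and Opcml (0.82), a cell adhesion molecule.

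For Dpysl4 the closest were Hpca (0.76), the hippocampal calcium sensor hippocalcin, Rprml (0.71) and Nrgn (0.71), the postsynaptic protein neurogranin. For Dpysl2 they were Dyrk2 (0.70), a kinase that phosphorylates CRMPs, Mapt (0.69), the microtubule protein tau, and Azin1 (0.66), an inhibitor of antizyme. Dpysl2 thus had weaker nearest neighbours than the other members. Crmp1 also followed the summed markers of immature neurons (Dcx, Stmn2, Gap43, Tubb3, Neurod6, Sox11, Nrep; r = 0.82) and ran against those of thalamus (r = −0.66), while Dpysl2 had r = 0.39 and 0.03 with the same sums. For immature neurons Dpysl3 was at r = 0.53, Dpysl5 at 0.54 and Dpysl4 at 0.14. With choroid plexus markers Dpysl2 had r = −0.38 and with microglia markers −0.35. Dpysl5 lay farther from 0 with both sums, at −0.50 and −0.49, while Dpysl4 was at 0.31 and 0.0083. With astroglia markers Dpysl5 was at −0.60, Crmp1 at −0.49, Dpysl3 at −0.46, Dpysl2 at −0.24 and Dpysl4 at 0.09. With progenitor markers Crmp1 was at −0.54, Dpysl5 at −0.46, Dpysl4 at −0.38, Dpysl2 at −0.18 and Dpysl3 at −0.14.

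Genes that act with CRMPs were followed in 3 lists. In CRMP1+CRMP2, 2 of 13 semaphorin ligands and receptors passed as higher and 0 as lower, with a median log2 fold change of 0.14 over the list and 0.0073 over all genes. They were Plxna4, a plexin that carries semaphorin 3A signals (0.34, SE 0.11, adjusted p = 0.0699, edgeR), and the repellent ligand Sema3f (0.21, SE 0.08, adjusted p = 0.0991). Sema3a itself stood at −0.15 (adjusted p = 0.400) and its receptor Nrp1 at 0.33 (adjusted p = 0.157). Of 10 kinases and regulators 2 passed as lower, namely Cdk5r2, the p39 activator of Cdk5 (−0.27, SE 0.08, adjusted p = 0.0398), and the Src family kinase Fyn (−0.10, SE 0.03, adjusted p = 0.0830), with a list median of 0.04. Of 12 cytoskeletal partners, the kinesin light chain Klc1 was lower (−0.18, SE 0.03, adjusted p = 0.00246), Cyfip1, a part of the WAVE complex, was higher (0.15, SE 0.05, adjusted p = 0.0626), and the list median was −0.02.

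Together 6 of the 35 listed genes passed, beside the 11.4% of all genes that did. Without the libraries with pineal or Hox RNA, among them 4 of the 8 exposed animals, 1 gene of the whole table passed. CRMP1+CRMP2 was in batch 2 alone, but its controls here came from both batches. Against the batch 2 controls alone 1.01% of all genes passed. Between the control batches 18 of the 35 listed genes passed, beside 41.5% of all genes. The fit behind the 6 calls in CRMP1+CRMP2 takes littermates as independent. With counts summed per litter 0 genes of the whole table passed, so that none of the 6 was called, and with litter as a random effect 8 genes passed. In the 3 other patterns 0 of the 35 passed (edgeR). An unadjusted p under 0.05 was reached by 6 in LDHA/B+CRMP1+STIP1, where 911 of all 12700 genes reached it. In CRMP1+GDA it was reached by 0 of the 35 and 462 of all 12641, and in STIP1+NSE by 0 and 404 of all 12660. Neuronal markers in CRMP1+CRMP2 did not move one way: of the immature list Gap43 (−0.18) and Stmn2 (−0.17) were lower and Sox11 (0.31) higher, and of 6 maturing markers Camk2a (−0.39), Nefl (−0.36) and Syt1 (−0.18) were lower, with adjusted p from 0.0155 to 0.0946 (edgeR). Of the maturing estimates 4 were lower and 2 higher. Summed maturing markers ran from 1063 to 1466 CPM in CRMP1+CRMP2 and from 1141 to 1533 in batch 2 controls. Of the other cell types, Olig1 (−0.27) and Sox10 (−0.30), 2 of 4 markers of the oligodendrocyte lineage, and Sox2 (−0.35), 1 of 7 of progenitors, were called lower. In the progenitor list 4 estimates were lower and 3 higher, with a median of −0.0055. In the oligodendrocyte list 3 were lower and 1 higher, with a median of −0.23. The microglia list, with 0 of 4 called (edgeR), had a median of 0.28, and astroglia, with 0 of 5, of −0.19. The part of these cells in the Dpysl2 level was not tested.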

How the data were processed

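Poly-A libraries of 71 PND2 brain slices were sequenced as paired reads. Per the paper's methods and the labels, the authors aligned reads with STAR 2.5.4b to rn7 and counted them per gene with featureCounts, and they deposited these raw counts, with no normalization, for 17494 genes beside gene models and exon lengths in bases, an annotation unit of another kind. Libraries held 24880182 to 36234952 counts (median 28439195), and 74.5% of counts from 1 to 9 were even, and a count may therefore not equal 1 fragment. 0 columns were left unmapped.

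Groups came from the autoantibody label, litters from the dam and batches from the title series, which fits the composition that the methods give. Models were fitted on the whole table in R 4.3.3 with edgeR 4.0.16 (TMM, robust quasi-likelihood) and Benjamini-Hochberg adjustment, with FDR < 0.1. The general model kept genes that reached 1 CPM in 8 or more samples, single patterns those over 1 CPM in 2 or more, each with the first surrogate variable (sva 3.50.0). Controls between batches and patterns within a batch had sex as covariate. Animals are the replicates in these fits although littermates share a dam, so that p-values are too small and intervals too narrow where litters differ. CPM carry TMM factors, and log2 CPM a prior count of 2. Scripts were tested on simulated data with a log2 change of 1 in 200 genes and no litter effect. That test does not cover changes as small as those of the members, or litters that differ.

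The 5 members, for each the 3 genes of highest correlation, and the genes of 3 lists past the threshold (or the 2 of smallest p in CRMP1+CRMP2) are named; Sema3a and Nrp1 were added after their values were seen. For Dpysl3, 1 of the 3 is not reported here. Members and lists were chosen with earlier results of these data known. Alternatives were other normalizations (RLE, upper quartile, library size alone), no filter, DESeq2 1.42.0, limma 3.58.1 with litter as a random effect, litter sums, other covariates, single batches, 14 libraries left out, litter as a block between sexes (added after seeing the data) and each litter left out in turn. Promoters matched 4 members by symbol in the RefSeq table (GRCr8).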

Additional observations from a re-analysis of the deposited data

How the results depend on the processing

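The replicate numbers name animals within a group and pair none between groups, but 22 of 27 litters held both sexes. With litter as a block, an alternative chosen after seeing the data, the count of members past FDR < 0.1 between the sexes stayed 0 (9 genes in all, against 8) and Dpysl2 turned to −0.0017. In CRMP1+CRMP2 the count of members past FDR < 0.1 was 1 with median-ratio size factors, no filter and DESeq2. It was 0 with upper quartile normalization, library size alone, counts summed per litter, litter as a random effect, batch and sex as covariates, PC1 and PC2, batch 2 alone, and without libraries with pineal or Hox RNA. Dpysl2 stayed lower in all 11 of these settings, from −0.18 to −0.09. With each of 11 litters left out the count ranged from 0 to 1 and Dpysl2 from −0.20 to −0.09; the call was lost without control litters IgG2, 9_10, 9_15 or 9_25 or exposed litters 9_1, 9_6 or 9_11 (adjusted p from 0.112 to 0.442). All genes called there ranged from 0 (litter sums), 1 (without libraries with pineal or Hox RNA) and 8 (litter random) through 127 (batch 2) and 491 (batch and sex) to 2394 (PC1 and PC2), against 1445, and from 41 to 2889 with a litter left out. Among controls 4 members passed, 1 with litter sums, and 3 to 4 with a litter left out; Dpysl4 was not called with litter as a random effect (adjusted p = 0.225) or without litter RNA4 (0.106). Member counts of 0 in the other 7 comparisons stayed 0 under every alternative run. Over settings other than left-out litters, all genes called ranged from 0 to 16 (all exposed), 0 to 124 (LDHA/B+CRMP1+STIP1), 0 to 5 (CRMP1+GDA), 0 to 9 (STIP1+NSE), 0 to 16 (difference between batches) and 0 to 2 (CRMP1 patterns against STIP1+NSE). With a litter left out they ranged from 0 to 63 (all exposed), 0 to 44 (LDHA/B+CRMP1+STIP1), 0 to 4 (CRMP1+GDA) and 0 to 13 (STIP1+NSE). Correlated pairs (2 with r at adjusted p under 0.1) were 4 when centred within batch and pattern, 1 in batch 2 alone and 1 without the libraries with pineal or Hox RNA, where Dpysl4 and Dpysl5 turned to 0.048. The cause of these changes was not tested.

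Estimates that changed sign were not called in any setting. For all exposed animals, Dpysl2 (0.0011) turned to −0.0015 with median-ratio factors, −0.0019 with no filter, −0.0013 with DESeq2, −0.0066 with litter sums, −0.0032 with litter as a random effect, −0.00092 without libraries with pineal or Hox RNA and −0.092 in batch 2. There Dpysl4 turned to 0.00072 (library size), 0.0028 (litter random), 0.0013 (PC1 and PC2) and 0.016 (batch 2), Dpysl5 to −0.0018 (without pineal or Hox libraries) and Crmp1 to −0.0048 (batch 2). In CRMP1+CRMP2, Dpysl3 turned to 0.0058 (litter sums), 0.014 (batch and sex), 0.029 (PC1 and PC2) and 0.010 (batch 2), Dpysl4 to −0.019, −0.032 (batch and sex) and −0.024 (batch 2), and Crmp1 to 0.032 (PC1 and PC2). In LDHA/B+CRMP1+STIP1, Dpysl5 turned to 0.0084 (litter sums), 0.0067 (batch and sex) and 0.017 (batch 1), and in batch 2 Dpysl2 to −0.033 and Dpysl4 to 0.018. In CRMP1+GDA, Crmp1 turned to 0.0040 (upper quartile), 0.016 (litter random), 0.022 (without pineal or Hox libraries) and 0.0074 (PC1 and PC2), Dpysl2 to 0.0072 (without those libraries), Dpysl3 to −0.0087 and Dpysl5 to −0.035 (batch and sex), and Dpysl5 to −0.020 (batch 2). In STIP1+NSE, Dpysl3 turned to −0.0089 (batch and sex) and −0.00031 (batch 2). In the difference between batches, Dpysl3 turned to 0.0014 (upper quartile), 0.012 (litter sums) and 0.081 (without pineal or Hox libraries), Dpysl5 to 0.0050, 0.0035 (litter random) and 0.012, and Crmp1 to −0.0011 (litter random). Without those libraries Dpysl2 turned to −0.00047 between control batches, −0.0035 between sexes and 0.077 for CRMP1 patterns against STIP1+NSE, and Dpysl5 there to 0.0015.

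With a litter left out, ranges that crossed 0 were, for all exposed animals, Dpysl4 −0.014 to 0.0053, Crmp1 −0.0046 to 0.016, Dpysl2 −0.038 to 0.029 and Dpysl5 −0.020 to 0.028. In CRMP1+CRMP2 they were Dpysl4 −0.027 to 0.044, Dpysl5 −0.017 to 0.063, Dpysl3 −0.075 to 0.035 and Crmp1 −0.094 to 0.021. In LDHA/B+CRMP1+STIP1 they were Dpysl5 −0.030 to 0.0029, Dpysl2 −0.0055 to 0.077 and Crmp1 −0.016 to 0.018. In CRMP1+GDA they were Crmp1 −0.057 to 0.029, Dpysl3 −0.021 to 0.094, Dpysl2 −0.12 to 0.043, Dpysl4 −0.030 to 0.13 and Dpysl5 −0.035 to 0.10. In STIP1+NSE they were Dpysl3 −0.044 to 0.066, Crmp1 −0.016 to 0.10 and Dpysl2 −0.10 to 0.055. Between control batches Dpysl2 ran from −0.031 to 0.11. For CRMP1 patterns against STIP1+NSE they were Dpysl2 −0.12 to 0.039, Dpysl5 −0.021 to 0.014, Crmp1 −0.077 to 0.028 and Dpysl4 −0.082 to 0.011.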
